A study of Mus musculus with 3 samples.

Results

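Peroxisome biogenesis and lipid enzyme genes were followed in differentiated iBATs over 2 h of isoproterenol (ISO). They were taken from a list of 36 genes, chosen with earlier results of these data known. Each was read from a probe set that carried its symbol alone, and where several did, from the one with the highest mean signal. All 36 were on the array, with 75 probe sets, and 30 reached a signal of 100 on 1 or more arrays and were read, of 6896 genes read in all. iBATs are brown preadipocytes from the stromal vascular fraction of interscapular fat of C57BL/6 mice at P3 (postnatal day 3), immortalized with SV40 large T antigen and kept as a single line, so that all samples share this background. They were differentiated with insulin and indomethacin, held in insulin, and harvested on day 8 after 0, 1 or 2 h of ISO, an agonist of all β-adrenergic receptors (1 μM). Each time point had 1 Affymetrix mouse array of total RNA, so there was no replicate error and no p-value is given.

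Peroxisomes are single-membrane organelles that shorten fatty acids too long or too branched for mitochondria, break down hydrogen peroxide with catalase and begin the synthesis of ether lipids. Peroxins (Pex proteins) insert their membrane proteins and import folded enzymes through cycling receptors. Brown fat holds many peroxisomes, and the nuclear receptor PPARα is named for their proliferation in rodents given its ligands.

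A value is a MAS5 signal, the linear brightness of 1 probe set on 1 array, and a ratio is that signal over the 0 h signal. Ratios were sorted by a larger size, 0.8 on the log2 scale (1.74-fold), and a smaller one, 0.3 (1.23-fold), in either direction. Neither is a test. The robust spread of log2 ratios over all genes read was 0.16 at 1 h and 0.24 at 2 h, and it holds real change as well as noise. All 4 adipocyte and all 5 brown adipocyte markers on the array reached 100, with Ucp1 up to 4166.1. Prdm16 did so at 0 h alone, with 107.5, 77.5 and 69.3. Of 6 preadipocyte and fibroblast markers 5 reached 100, and the 6 summed to 11676.9, 12037.2 and 11076.7 at 0, 1 and 2 h. The part of such cells in the values below was not tested, and in this bulk RNA fewer cells of a type and less RNA per cell cannot be told apart. None of the markers of macrophages and leukocytes, endothelium, skeletal muscle or hepatocytes (6, 5, 5 and 4 genes) reached 100 on any array. The macrophage and leukocyte marker Cd14 came nearest, with 34.6, 41.8 and 93.2.

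Most peroxisomal genes kept close to their 0 h signal. At 1 h, 26 of the 30 lay within 0.3 log2 units of 0 h, and at 2 h 24 did. No gene of the list was past 0.8 at 1 h, where 1.58% of all genes read were higher and 0.218% lower by that size. At 2 h 1 gene was higher by that size (3.33%, against 2.73% of all genes read) and 1 was lower (3.33%, against 0.812%). These were Acaa1b, a thiolase of β-oxidation, and Abcd2, an importer of very long-chain acyl-CoA. Abcd2 passed the signal limit by its 0 h array alone, where it was highest, and its call is lost when lower signals are raised to 100 (-0.13), so nothing is read from the share of lower genes. By the smaller size, 2 genes were higher at 1 h (6.67%, against 6.06% of all genes read) and 2 lower (6.67%, against 7.44%). At 2 h 3 were higher (10.0%, against 10.1%) and 3 lower (10.0%, against 16.3%). Abcd2 is among the lower genes at both times. The shares by the smaller size lay near or below those of all genes read, and each share by the larger size rests on 1 gene. The 30 genes had a median log2 ratio of -0.02 after 1 h and of -0.07 after 2 h, equal to the medians over all genes read (-0.02 and -0.07).

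**Figure D1:**
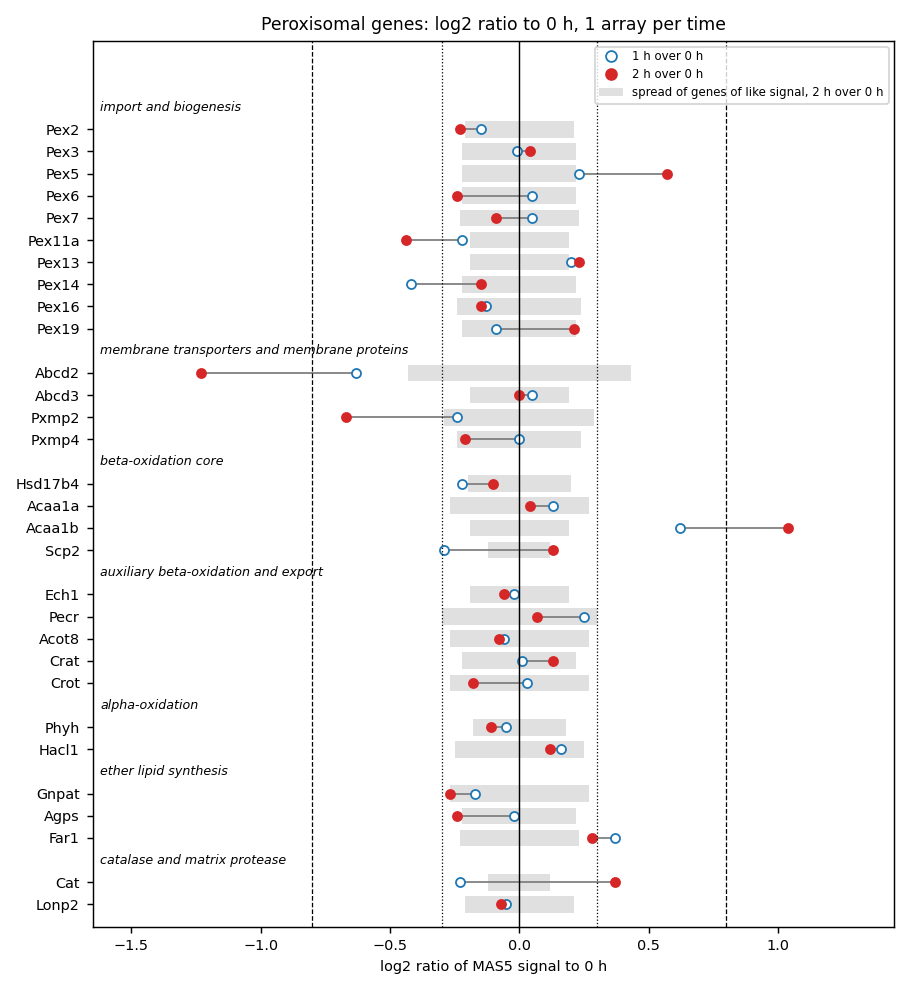
Log2 ratio of MAS5 signal to 0 h (horizontal axis) for the 30 peroxisomal genes read, by role, at 1 h (open blue) and 2 h (red) of ISO, 1 array per time and no error bars. Grey bars are the robust spread of genes of like signal at 2 h, and lines mark 0.3 (dotted) and 0.8 (dashed); Acaa1b at 1.04 and Abcd2 at -1.23 are the points past 0.8.

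The enzymes that cut carbon units from the chain stand first, since they hold the largest ratio above 0 h. Acaa1b encodes 1 of a pair of mouse 3-ketoacyl-CoA thiolases, which release acetyl-CoA in the last step of each β-oxidation round. It read 735.0 before ISO, 1128.8 after 1 h and 1508.1 after 2 h. It was thus higher at each step, 1.54-fold of 0 h at 1 h and 2.05-fold at 2 h, with log2 ratios of 0.62 and 1.04. Genes of like signal had a spread of 0.12 at 1 h and 0.19 at 2 h, and the ratio of Acaa1b stood at percentile 97.8 of all genes read at 1 h and 98.2 at 2 h. Its paralog Acaa1a had signals of 99.8, 108.9 and 102.4 and log2 ratios of 0.13 and 0.04. A second probe set of Acaa1a had 104.3, 65.2 and 118.5, with log2 ratios of -0.68 and 0.18, so the 2 disagreed at 1 h. The 2 probe sets of Acaa1a have identifiers with the suffix for cross-hybridizing probes, and how far they read Acaa1b was not tested.

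The promoters of this pair are shown because the 2 genes carry the same enzyme step and differed in ratio at 2 h on the probe sets read (1.04 for Acaa1b and 0.04 for Acaa1a). The value for Acaa1a is from a dim probe set near the signal limit, and 2 brighter probe sets annotated to both genes had 0.49 and 0.46. The promoters are RefSeq sequences of build GRCm38.p6, from 250 bases before to 50 bases after the annotated start. They are read 5′ to 3′ on the strand of the gene, with CCAAT boxes (CCAAT, either strand) in capitals. That of Acaa1b is chr9:119157044-119157343 on the minus strand, and that of Acaa1a is chr9:119341044-119341343 on the plus strand.
Acaa1b: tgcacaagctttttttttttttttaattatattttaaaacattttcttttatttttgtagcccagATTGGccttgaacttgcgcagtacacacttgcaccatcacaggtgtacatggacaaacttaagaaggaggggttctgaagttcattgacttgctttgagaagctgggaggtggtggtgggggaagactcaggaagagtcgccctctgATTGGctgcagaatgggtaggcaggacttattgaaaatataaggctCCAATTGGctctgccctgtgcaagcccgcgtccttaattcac
Acaa1a: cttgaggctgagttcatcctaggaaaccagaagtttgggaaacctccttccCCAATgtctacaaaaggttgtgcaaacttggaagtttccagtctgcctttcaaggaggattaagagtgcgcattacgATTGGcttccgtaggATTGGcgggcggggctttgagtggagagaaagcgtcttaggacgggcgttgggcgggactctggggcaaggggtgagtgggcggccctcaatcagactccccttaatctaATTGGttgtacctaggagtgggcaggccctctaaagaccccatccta
An alignment of the pair had 167 identical, 95 mismatched and 76 gapped bases, so 63.7% of aligned bases were identical. Each window holds 4 CCAAT boxes, and those of Acaa1b at 9 and 12 bases after the start overlap on opposite strands. Neither holds the nuclear receptor half-site AGGTCA nor the cyclic AMP response element half-site TGACG, on either strand. The best window for a direct repeat of the half-site spaced by 1 base (AGGTCANAGGTCA, the form bound by PPARs) matched 8 of its 12 bases in Acaa1b and 7 in Acaa1a.

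The other core enzymes changed less. Scp2, which encodes both a thiolase for branched chains and a sterol carrier protein, had signals of 2250.5, 1838.8 and 2464.4 at 0, 1 and 2 h. Its log2 ratio of -0.29 at 1 h was just inside 0.3, and at 2 h it was at 0.13. A further bright probe set of Scp2 had 1871.3, 1701.5 and 1699.0, so the dip at 1 h was seen on both and the return at 2 h on 1. Hsd17b4, the multifunctional enzyme that hydrates and dehydrogenates very long and branched chains, had 572.1, 491.2 and 535.2. Ehhadh, its counterpart for straight and dicarboxylic chains, stayed below 100 with a highest signal of 86.6, and Acox3, an acyl-CoA oxidase for branched chains, reached 17.2 at most. Neither was read.

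Genes for auxiliary steps and for export of the products were flat. Ech1, an isomerase for unsaturated chains, had 1177.7, 1158.0 and 1128.6, within 0.06 log2 units of 0 h throughout. Crat and Crot, which pass shortened acyl groups to carnitine, had log2 ratios of 0.13 and -0.18 at 2 h. Pecr, an enoyl-CoA reductase, was at 0.25 at 1 h and 0.07 at 2 h, and the thioesterase Acot8 was at -0.06 and -0.08, from 105.6 at 0 h. None of these 5 was past 0.3 at either time. The reductase Decr2 (highest signal 67.3) and the thioesterase Acot4 (10.4) were below 100 on all arrays. In α-oxidation, which removes 1 carbon from branched chains such as phytanic acid, the hydroxylase Phyh had 814.4, 785.7 and 752.1 and the lyase Hacl1 had 180.2, 201.7 and 195.3.

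The membrane transporters of the list are ABC half-transporters. Abcd2 read 109.3 before ISO, 70.8 after 1 h and 46.7 after 2 h, so it was lower at each step, 0.648-fold and 0.427-fold of 0 h. Its log2 ratio at 2 h was -1.23, and genes of like signal had a spread of 0.43. Its 0 h signal is the only one above the limit of 100. The gene was thus read only through the array where it was highest, and no rank is drawn from its ratio. With lower signals raised to 100 the ratio is -0.13. Its next brightest probe set, below 100 throughout, had 73.8, 49.7 and 36.2 (log2 ratio -1.03). The other 2 of its 4 probe sets, at 11.9 or less, are too dim to add to this. Abcd3, the 70-kDa peroxisomal membrane protein that carries long and branched acyl-CoA, had 970.9, 1002.9 and 972.9. Its log2 ratio was 0.00 at 2 h, and the difference from Abcd2 was not tested. Abcd4, a family member that serves lysosomal vitamin B12 export, was below 100, with 46.4 at most.

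Pxmp2, a channel-forming protein of the peroxisomal membrane, had 164.3, 139.0 and 103.0, lower at each step with a log2 ratio of -0.67 at 2 h. Pxmp4, a further membrane protein, had 226.7, 226.1 and 195.8, and its dimmer kept probe set had 129.8, 99.1 and 95.3. Of the 4 membrane genes read, 3 were below 0 h at 2 h, Abcd2 among them, near the share of all genes read (61.4%).

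Most peroxins stayed within 0.3 of 0 h at both times. Pex5 encodes the receptor that carries enzymes with the C-terminal targeting signal into the organelle. It had 192.7, 226.1 and 286.7, higher at each step and 1.49-fold of 0 h at 2 h (log2 ratio 0.57, percentile 95.7). A probe set of Pex5 below 100 had 40.1, 44.9 and 62.1, a ratio of like size. Pex7, the receptor for the N-terminal signal that thiolases carry, had 459.1, 476.0 and 432.7, within 0.09 log2 units of 0 h.

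Of the docking complex that receives these carriers, Pex13 had 939.6, 1079.1 and 1099.1. Pex14, its partner, had 252.2, 188.8 and 227.8. Its log2 ratio of -0.42 at 1 h was past 0.3, and that of -0.15 at 2 h was not. In the later steps, Pex2, a ring-finger subunit of the ubiquitin ligase that lets the receptors leave, had log2 ratios of -0.15 and -0.23. Pex10 of the same complex was not read, with 78.5 at most. Pex6, an ATPase that pulls receptors out of the membrane, was at 0.05 and -0.24, and its 3 kept probe sets lay between -0.43 and -0.24 at 2 h.

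Pex11a, which elongates the membrane before the organelle divides and responds to peroxisome proliferators in rodents, had 720.9, 620.7 and 531.0. It was lower at each step, with a log2 ratio of -0.44 at 2 h where genes of like signal had a spread of 0.19. The second kept probe set had 528.3, 474.8 and 407.2, so both gave the same course. The 3 peroxins that place membrane proteins, Pex3, Pex16 and Pex19, stayed within 0.21 log2 units of 0 h at both times. Over all 10 peroxins read, 1 was higher and 1 lower by 0.3 at 2 h (10.0% each, against 10.1% and 16.3% of all genes read), which does not set peroxins apart.

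**Figure D2:**
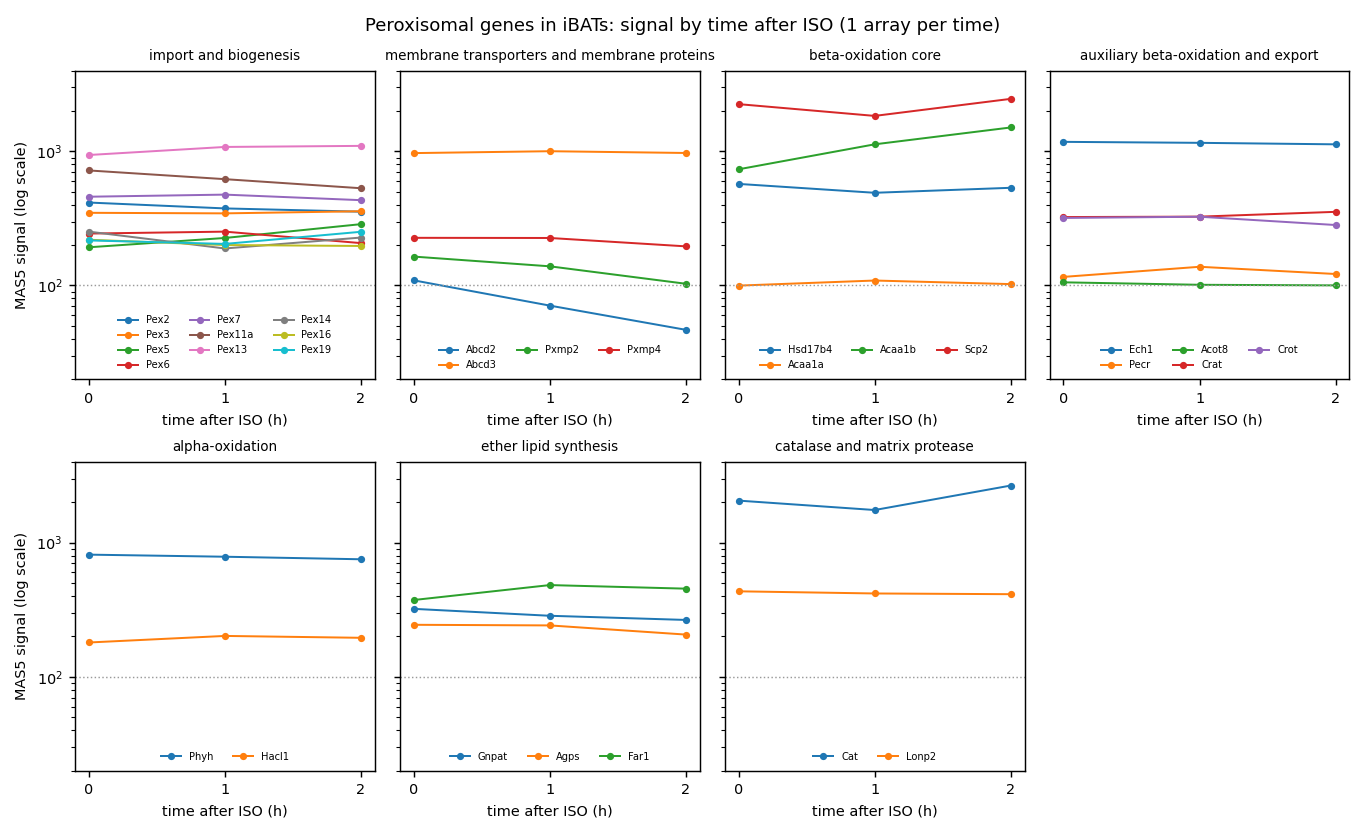
Time course of the 30 peroxisomal genes read, with hours of ISO on the horizontal and MAS5 signal on the vertical axis, which is logarithmic, 1 panel per role, 1 line per gene and 1 array per time, with no error bars. The dotted line is the limit of 100; Acaa1b ends at 1508.1 and Abcd2 at 46.7, and most other lines are flat.

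Ether lipid synthesis starts in the peroxisome with Gnpat, which acylates dihydroxyacetone phosphate, and Agps, which swaps the acyl for an alkyl chain. Gnpat had 321.1, 285.1 and 265.4, and Agps had 244.2, 241.6 and 206.4, with log2 ratios of -0.27 and -0.24 at 2 h, both just inside 0.3. Far1, the reductase that supplies the fatty alcohol, went the other way, with 373.6, 482.9 and 454.1. It was past 0.3 at 1 h (0.37) and not at 2 h (0.28). Its other kept probe sets were split, with 223.9, 262.6 and 308.7 on 1 and 133.8, 123.7 and 117.3 on the other.

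Cat encodes catalase, which breaks down hydrogen peroxide made by the oxidases. Its brightest probe set had 2059.3, 1752.0 and 2667.7, or -0.23 and 0.37 in log2 units against 0 h. The other kept probe set had 1612.0, 1660.6 and 1673.8, with 0.04 and 0.05 in the same units, so the lower value at 1 h and the size at 2 h rest on 1 of 2 probe sets. Lonp2, the protease of the peroxisomal matrix, had 433.9, 418.1 and 413.0.

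The promoter of Cat is shown because it holds the closest match to the direct repeat among the genes read. It is chr2:103485104-103485403 on the minus strand of GRCm38.p6, with AGGTCA and CCAAT boxes in capitals.
Cat: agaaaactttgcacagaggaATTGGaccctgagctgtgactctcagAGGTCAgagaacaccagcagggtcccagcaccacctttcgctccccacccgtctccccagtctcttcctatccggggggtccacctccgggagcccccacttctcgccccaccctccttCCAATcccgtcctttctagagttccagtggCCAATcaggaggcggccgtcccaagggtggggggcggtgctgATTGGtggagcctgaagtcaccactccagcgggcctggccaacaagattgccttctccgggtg
The half-site starts 204 bases before the start, and the 13-base window from there, aggtcagagaaca, matched 10 of the 12 bases of the repeat. Windows of this length were found in the RefSeq table for 29 of the 36 genes (34 windows, some overlapping), and not for Abcd2, Abcd4, Crat, Hsd17b4, Pex2, Pex19 and Pxmp2. Of the 34 windows 2 held at least 10 of the 12 bases (5.88%, against 3.86% of all 32851 promoters), the second being that of Acot4, and none held the exact repeat (0.0396% of all promoters). AGGTCA was in 4 (11.8%, against 16.3%), TGACG in 12 (35.3%, against 20.8%) and CCAAT in 16 (47.1%, against 37.4%). All promoters include those of genes not read here, and a gene with several windows counts more than once. These letters describe the windows only and were not set against binding data.

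Over the 3 arrays, 12 of the 30 genes were lower at each step (against 33.0% of all genes read) and 4 were higher at each step (13.3%, against 17.9%). The 12 were Pex2, Pex11a, Pex16, Abcd2, Pxmp2, Pxmp4, Ech1, Acot8, Phyh, Gnpat, Agps and Lonp2, and the 4 were Pex5, Pex13, Acaa1b and Crat. At 2 h 17 of the 30 were below 0 h (56.7%, against 61.4% of all genes read). Abcd2 is in both counts of lower genes though it was read only through its 0 h array, so nothing is read from these shares. The ratios at 1 and 2 h share the 0 h array.

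Probe sets of a gene did not always move together. Of 11 genes with several kept probe sets, 8 had the same sign on all of them at 2 h and 3 did not (Far1, Pex19 and Scp2). Pex11a was the 1 gene of the 11 past 0.3 at 2 h on every kept probe set. For Hsd17b4 and Pxmp4 the dimmer probe set was past 0.3 (-0.35 and -0.45) and the brighter was not (-0.10 and -0.21). Among the genes past 0.3 at 1 or 2 h, Acaa1b, Pex5, Pxmp2, Abcd2 and Pex14 each had a single kept probe set.

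**Figure D3:**
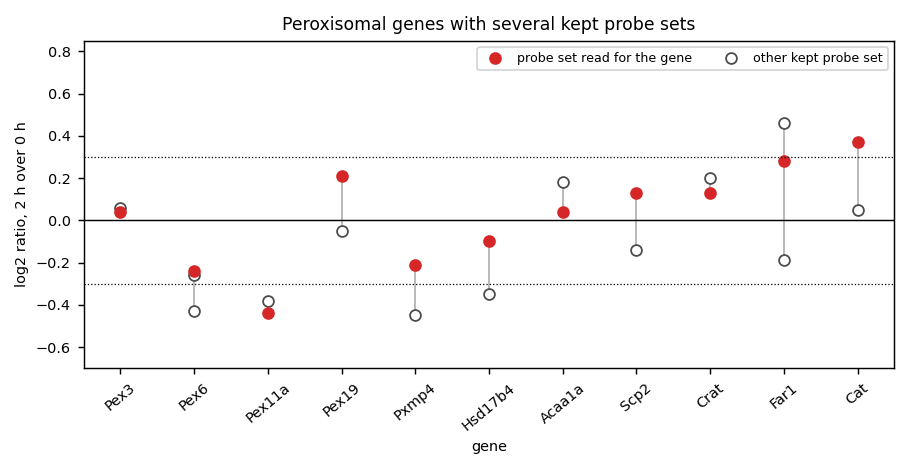
The 11 peroxisomal genes with several kept probe sets (horizontal axis), each probe set placed by its log2 ratio of 2 h over 0 h of ISO (vertical axis), 1 array per time. Red points are the probe sets read, open points the others, and dotted lines mark 0.3; Pex11a lies below -0.3 on both, and Cat is at 0.37 on 1 and 0.05 on the other.

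Of a further list of 52 peroxisome genes, 44 had a probe set with 1 symbol here and 23 were read. None was past 0.8 at 1 or 2 h. At 2 h 2 were higher by 0.3, Pmvk (0.54) of isoprenoid synthesis and Xdh (0.53) of purine breakdown (8.7%, against 10.1% of all genes read), and 6 were lower (26.1%, against 16.3%). Ddo, which oxidizes acidic D-amino acids, had 183.2, 138.9 and 120.8, Nudt19, a CoA hydrolase, had 152.7, 135.0 and 100.4, and Nudt12, which hydrolyses NADH, had 186.6, 107.5 and 129.8. The 23 genes read from this list had a median log2 ratio of -0.11 at 2 h. Mitochondrial β-oxidation also cuts fatty acids, those of shorter chains, in the same cells. All 17 of its genes read were within 0.3 at 2 h, from -0.25 to 0.10 with a median of -0.08, and 73.6% of all genes read were within that size too. The spread of the lists was not compared by a test.

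Of 10 regulators of peroxisomal genes that were read, 3 were higher by 0.8 at 2 h, namely Ppara, Ppargc1a and Ppargc1b (30.0%, against 2.73% of all genes read). The list was chosen with earlier results of these data known, so nothing is read from this share. The paper itself shows microarray levels of Ppara and Ppargc1a over the same times. In the same list Pparg was higher by 0.3 at 2 h, with 1232.6, 1624.7 and 1953.6 (log2 ratio 0.66). Rxrb (-0.55), a partner of the PPARs, and Ep300 (-0.50), a histone acetyltransferase, were lower by 0.3. Ppara, the receptor of peroxisome proliferators, had 217.1, 365.5 and 393.0, with 0.75 and then 0.86 as its log2 ratios. The list as a whole had a median of 0.04 at 2 h.

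**Figure D4:**
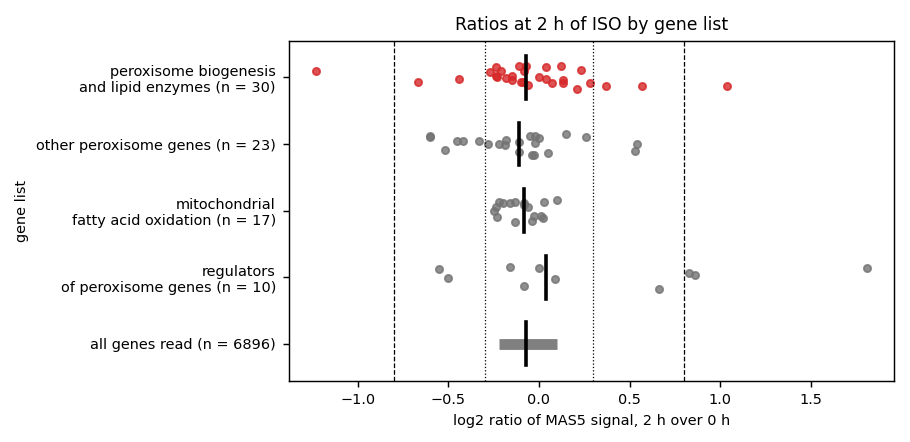
Genes of each list placed along the horizontal axis by their log2 ratio, 2 h of ISO over 0 h, for the 30 peroxisomal genes (red, top), 23 other peroxisome genes, 17 genes of mitochondrial fatty acid oxidation and 10 regulators (grey), 1 point per gene read. Black bars are medians, the grey bar at the bottom spans the middle 50% of all 6896 genes read, and lines mark 0.3 (dotted) and 0.8 (dashed); the median of the top row, -0.07, equals that of all genes read.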

How the data were processed

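Labelled RNA of iBATs was hybridized by the authors to Affymetrix mouse genome arrays, 1 each at 0, 1 and 2 h of ISO, and MAS5, named in the submitters' processing notes, gave the deposited linear intensity of each probe set. Trimmed of 2% at either end, the deposited intensities average 100.0 on every array, and they were used without further scaling. They include dim probe sets that a filter in the methods removes.

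Of 45101 probe sets, 34958 had 1 gene symbol in the archive's platform annotation, 932 carried more than 1 and were left out, and 9211 had no name here. All 36 peroxisomal genes were matched by identifier to RefSeq genes (GRCm38.p6) with no change of symbol. The probe set brightest on average stood for each gene, which was kept if it reached 100 on any array. Signals listed as 0 were set to 0.1 before log2. The log2 size of 0.8 is that of the study at 1 h, and 0.3 was added for small changes. Spread is 1.4826 times the median absolute deviation, for genes of like signal in 20 bins of mean signal. With 1 array per time, the number of arrays limits the precision and no p-value was computed. The genes, lists and sizes were chosen with earlier results of these data known. Genes were named if past 0.3, among the brightest of their role, or below 100, and further ones to complete a role. From the other lists, genes past 0.8 and up to 3 more with large ratios at 2 h were named, and Xdh and Nudt12 were added after their values were seen. The search of promoters for cyclic AMP response elements, CCAAT boxes and partial repeats was also added then. Calculations ran in Python 3.11.15 with numpy 2.4.6, pandas 2.3.3, biopython 1.88 and matplotlib 3.10.9, and were tested on simulated data. Protein sequences were not used here. The 8 alternatives changed the filter, the treatment of low signals, the scaling or the choice of probe set.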

Additional observations from a re-analysis of the deposited data

Results flagged for a closer look

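The 2 probe sets that carry both Acaa1b and Acaa1a in their annotation were left out of the values read per gene. Both had signals above the 0 h level at 2 h of ISO. The first read 446.3, 448.4 and 627.0 over 0, 1 and 2 h, a log2 ratio of 0.49 at 2 h. The second had 922.7, 1089.3 and 1271.2, a log2 ratio of 0.46 at 2 h. Both ratios lie between that of the probe set annotated to Acaa1b alone (1.04) and that of the probe set read for Acaa1a (0.04). Which of the pair these probe sets read was not tested.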

How the results depend on the processing

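The ratio of Acaa1b at 2 h was past 0.8 under all 8 alternatives, but most of them could not alter it. Its symbol stands alone on 1 probe set, which is above 100 on every array. Only adding 32 to each signal (1.01), scaling to the same median (1.06) and quantile normalization (1.01) could change the ratio. The 2 probe sets that carry both symbols of the pair (0.49 and 0.46) were left out in every setting. The median over the peroxisomal genes at 2 h lay between -0.08 and -0.05. At 1 h that median was between -0.06 and -0.01, except with each array scaled to the same median, where it was 0.08. Counts of a few genes moved as follows. Genes past 0.8 at 2 h, 2 as reported, were 1 where each array had to reach 100 and 1 where lower signals were raised to 100, since Abcd2 then lost its call or was not read. In the same settings genes lower by 0.3 at 1 h, 2 as reported, were 1 and 1. Without a filter on low signal, which reads all 36 genes, 4 were lower by 0.3 at 1 h, and 5 were higher and 5 lower at 2 h. Genes higher by 0.3 at 1 h, 2 as reported, were 4 with each array scaled to the same median, where the median of all genes at 1 h was 0.08 too, and 1 where the kept probe sets of a gene were summarized by their median, which put Far1 at 0.23. Cat at 2 h was at 0.21 with that median and 0.05 with suffixed probe sets left out. No paired analysis was possible because each time point had 1 array. Ratios of genes near a signal of 100, such as Abcd2, Acaa1a, Acot8 and Pxmp2, are the least precise.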
